A study of Mus musculus with 18 samples.

Results

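The +24 enhancer viewpoint of *Runx1* consisted of a pair of 4C-seq baits, +24 at the enhancer and +24cc at a neighbouring cohesin and CTCF binding site, and of the significant interactions deposited for each. Every fragment on both deposited lists was taken, category 1 and categories 1-2 together, which gave 913 *Dpn*II fragments for +24 and 1206 for +24cc, or 2119 of the 3673 listed for all 6 baits of the series. Category 1 is the authors' class of highest significance, and it held 727 fragments of +24 and 804 of +24cc. Fragments that abutted were merged into 1 significant interaction, which left 93 interactions for +24 and 117 for +24cc.

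In 4C-seq, a circular form of chromosome conformation capture, cross-linked chromatin is cut and ligated, and the fragments joined to a bait are read by sequencing. It was carried out in HPC-7 cells, a cultured mouse line of haematopoietic progenitors, so that 1 cell line stands behind all values. Each bait had 2 replicates, from cells of passage 8 and passage 10, and 1 control library in which the first ligation was left out of a mix of both. *Dpn*II was the first enzyme for all baits and *Mse*I the second for both +24 baits. Calls were made by the authors on all of chromosome 16 and again from 92250000 to 93635000 (mm10), a region named the domain here. An interaction lay inside the domain when its midpoint did.

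Runx1 is a DNA-binding transcription factor needed for the emergence of blood stem cells from haemogenic endothelium. The gene has 2 promoters, a distal P1 and a proximal P2, and the enhancer lies in the long intron between them. Enhancers act on promoters across kilobases of DNA when chromatin folding brings both together. CTCF and the ring-shaped cohesin complex hold many such loops. The paper also reports cohesin, without CTCF, at the enhancer itself. It describes the contacts of baits at cohesin and CTCF sites as similar to those of their neighbouring baits. It found no difference between them in overlap with further sites of this kind. The paper adds that such baits may lie too near their neighbours for separate contacts to be resolved. Whether cohesin or CTCF has a part in the differences described here was not tested.

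*Runx1* lies on the minus strand of chromosome 16 from 92601466 to 92826074, so that upstream means a higher coordinate. The P1 start site is at 92826074 and the P2 start site at 92697329. Both baits fell in intron 2 of the P1 transcript. Between its restriction sites, the +24 bait ran from 92801543 to 92802039 (497 bp) and the +24cc bait from 92800261 to 92800583 (323 bp). Their centres were 24.3 and 25.6 kb downstream of P1 and 1.36 kb apart. The *Dpn*II end of +24 pointed downstream and that of +24cc pointed upstream, so the ends at which ligation was read faced each other across 963 bp, which is 1 *Dpn*II fragment. The 300 bases at each *Dpn*II end are shown because they are the anchors of all contacts described here. They are given on the plus strand of mm10, with the *Dpn*II site in capitals.
+24 bait, chr16:92801543-92801842: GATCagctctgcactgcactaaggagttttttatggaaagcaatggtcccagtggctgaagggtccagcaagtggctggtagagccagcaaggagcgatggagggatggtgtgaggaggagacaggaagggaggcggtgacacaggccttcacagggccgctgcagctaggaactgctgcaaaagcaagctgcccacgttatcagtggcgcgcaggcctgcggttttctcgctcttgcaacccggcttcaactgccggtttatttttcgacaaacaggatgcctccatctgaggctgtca
+24cc bait, chr16:92800284-92800583: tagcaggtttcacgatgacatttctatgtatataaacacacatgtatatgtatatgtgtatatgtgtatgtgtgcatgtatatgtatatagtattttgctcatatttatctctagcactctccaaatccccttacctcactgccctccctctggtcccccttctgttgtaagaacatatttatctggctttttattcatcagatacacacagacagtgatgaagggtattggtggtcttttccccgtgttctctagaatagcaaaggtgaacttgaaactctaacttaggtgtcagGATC
The GATA core AGATAA had 2 matches in the +24cc end and 0 in the +24 end, counted on both strands, whereas 15.1% of the 4616 tiles of 300 bp in the domain held at least 1 match. The CTCF core AGGNGGC had 0 matches in both, and 14.8% of the tiles held at least 1.

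The pair of lists was compared fragment by fragment. Of 1572 fragments listed for either bait, 547 were listed for both, 366 for +24 alone and 659 for +24cc alone. The common fragments made up 59.9% of the +24 list and 45.4% of the +24cc list, or 34.8% of the combined list (Wilson 95% interval 32.5 to 37.2%). Thus baits 1 *Dpn*II fragment apart shared a minority of their combined list, but a majority of the +24 list. The lists differ in length, which alone limits the combined share. A fragment on 1 list alone may also have fallen just short of the threshold for the other bait. The lists pool the replicates and hold no read counts, so they do not show the depth of each bait and no spread between replicates can be given. All intervals and tests cover counting error only. The baits share both cell passages, and neighbouring fragments were called in a common window, so the units are not independent.

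Inside the domain, 682 of its 3221 *Dpn*II fragments (21.2%) were listed for +24 and 802 (24.9%) for +24cc. Both lists held the same 466, which is 14.5% of the domain's fragments, 68.3% of the +24 fragments there and 58.1% of the +24cc fragments. Outside the domain, chromosome 16 has 229029 fragments, of which 231 (0.101%) were listed for +24, 404 (0.176%) for +24cc and 81 (0.0354%) for both. The 81 were 35.1% of the +24 and 20% of the +24cc fragments outside. Contacts outside the domain were therefore mostly held by 1 bait.

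Counted as interactions, 39 of 54 +24 interactions inside the domain (72.2%, Wilson interval 59.1 to 82.4%) overlapped a +24cc interaction, against 14 of 39 outside (35.9%, 22.7 to 51.6%). The odds ratio was 4.56 (95% interval 1.76 to 12.4) by two-sided Fisher's exact test, with an adjusted p of 0.00198 over 6 tests. For +24cc the shares were 39 of 57 inside (68.4%, 55.5 to 79%) and 14 of 60 outside (23.3%, 14.4 to 35.4%). This odds ratio was 6.98 (2.93 to 17.6), with an adjusted p of 6.42e-06 by the same exact test. Interactions inside were also longer, with a median of 4661 bp against 2415 bp for +24 and 4983 bp against 2552 bp for +24cc, and a longer interaction has more bases at which to meet another. The lists are also far denser inside, where the other bait listed 24.9% and 21.2% of fragments against 0.176% and 0.101% outside, and inside they may take calls from both regions. The test thus says that the shares differ, and the parts of length, density and calling region were not tested.

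Other properties of the interactions did not pass the test between baits. Outside the domain lay 39 of 93 +24 interactions (41.9%, 32.4 to 52.1%) and 60 of 117 +24cc interactions (51.3%, 42.3 to 60.2%), an odds ratio of 0.69 (0.38 to 1.23) with an adjusted p of 0.316 by Fisher's exact test. Upstream of their own bait in the domain were 34 of 54 (63%) and 37 of 57 (64.9%), with an odds ratio of 0.92 (0.39 to 2.14) and an adjusted p of 1 by the exact test. At least 1 category 1 fragment was held by 69 of 93 +24 interactions (74.2%) and 72 of 117 +24cc interactions (61.5%), an odds ratio of 1.79 (0.95 to 3.42) with an adjusted p of 0.112 by the exact test. Counted as single fragments, the shares outside and in category 1 did pass, with odds ratios of 0.673 and 1.95 and exact adjusted p of 6.96e-05 and 6.48e-11, but fragments of 1 interaction are not separate events. These intervals leave room for differences in either direction.

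Overlap varied with distance and side. Distances are from the midpoint between the baits, and each share is of all *Dpn*II fragments in that distance class. Between 20 and 50 kb upstream, 59 of 81 fragments were listed for +24, 57 for +24cc and 42 for both. From 50 to 100 kb upstream, the counts were 82, 87 and 64 of 134. Each bait thus had contacts at over 60% of fragments in these classes, which hold P1 and the first upstream elements. From 10 to 20 kb upstream it was 8 and 9 of 21 fragments, with 7 in both.

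Further upstream the lists parted and came together again. From 100 to 200 kb, 46 fragments were listed for +24 and 60 for +24cc, but the same 12 were in both, which is 12.8% of the combined list. From 200 to 400 kb upstream, where the −303 to −371 elements lie, 147 and 169 of 493 fragments were listed and 86 were in both (37.4% of the combined list). Between 400 and 600 kb, 49 and 51 were listed and 23 were common. The low overlap from 100 to 200 kb upstream was not seen at the same distance downstream, where 69 and 89 of 236 fragments were listed and 49 were in both (45%). The difference between these distance classes was not tested.

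Downstream beyond 200 kb, +24cc had more listed fragments than +24 in each class. Both had contacts at most fragments from 20 to 50 kb (68 and 73 of 87, with 56 in both) and from 50 to 100 kb (68 and 87 of 109, with 57 in both). From 200 to 400 kb downstream, the +24 list held 23 of 439 fragments, of which 20 were also in the +24cc list of 58. From 400 to 600 kb, a class that crosses the downstream edge of the domain, +24 had 0 of 438 fragments and +24cc had 13. From 600 to 850 kb the counts were 33 and 87 of 589, with 12 in both, and from 850 to 1500 kb they were 13 and 76 of 1450, with 2 in both. From 1500 to 4000 kb they were 5 and 36 of 6005, and 26 of the 36 lay in 1 interaction of 1.67 kb. Upstream at 850 to 1500 kb the counts were 145 and 166 of 1535, with 64 in both, so that the imbalance between the baits was on the downstream side. That difference was chosen for description after its values were seen and was not tested.

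**Figure D1:**
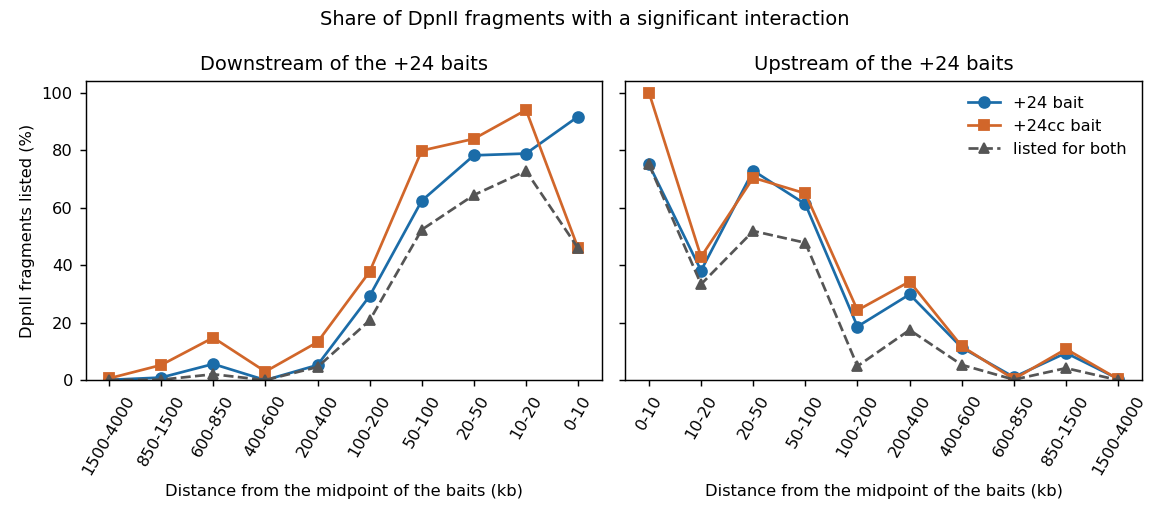
Share of all *Dpn*II fragments (%, y axis) listed for +24 (blue circles), +24cc (orange squares) and both (grey triangles) in classes of distance from the midpoint of the baits (kb, x axis), downstream on the left and upstream on the right. Upstream the blue and orange lines run close together beyond 10 kb while the grey line drops at 100 to 200 kb, and downstream beyond 200 kb the orange line lies above the blue.

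Next to the baits themselves the lists were not mirror images. +24cc listed the *Dpn*II fragment that holds the +24 bait, and +24 did not list the one that holds the +24cc bait. Within 10 kb upstream of the midpoint, +24 listed 15 of 20 fragments and +24cc 20 of 20. Within 10 kb downstream, +24 listed 22 of 24 and +24cc 11. Each list was thus fuller on the side of the other bait. The first fragment that +24 listed was the 5th upstream and the 3rd downstream of its bait fragment, and for +24cc it was the 2nd and the 4th. The authors removed self-ligated reads, reads on fragments beside the bait and reads on fragments that also had a read in the control, all of which bear on the nearest fragments, and the part of these filters was not tested.

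The longest stretch of fragments listed for both baits, from 92819667 to 92833590 (13.9 kb, 32 fragments), spanned the P1 start site 25.5 kb upstream of the baits. All 32 fragments were category 1 in each list, and the P2cc and P2 baits had an interaction there. The P1cc and P1 baits lie in this stretch, so their own interactions there add nothing. The next, from 92869356 to 92883082 (13.7 kb, 44 fragments, all category 1 in each list), covered the −48 element and was also met by P1cc, P1 and P2cc. The third, from 92739742 to 92751282 (11.5 kb, 29 fragments), lay in the intron between P1 and P2. The longest common contacts were thus at P1, at an upstream element and in the intron. All of these lie in distance classes where each bait listed 61.2 to 79.8% of fragments. Nearness to the baits was thus not separated from contact with these sites.

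In all, 61 stretches were common, 46 inside the domain (209 kb, median 4066 bp) and 15 outside (46.7 kb, median 2543 bp). Outside the domain the longest was 9.17 kb (93741136 to 93750305, 22 fragments, all category 1 in each list) in *Dop1b*, 945 kb upstream. A common stretch at the P2 start site, from 92696806 to 92703085 (6.28 kb, 15 fragments), had 0 fragments that were category 1 in both lists. At P2 itself the +24 fragment was category 1, and the nearest category 1 fragment of +24cc was 3.51 kb away. The P1 start site was on a category 1 fragment of both.

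Along *Runx1*, contacts were densest in the intron between the promoters and in intron 3, and differed in number among the later introns. Intron 2 of the P1 transcript (130 kb) has 317 *Dpn*II fragments, of which 186 were listed for both baits, 37 for +24 alone and 61 for +24cc alone. Intron 3 (6.35 kb) had 7 of 14 in both and 2 for each bait alone. Intron 4 (20.2 kb) had 4 of 53 fragments in both, 6 for +24 alone and 18 for +24cc alone. Intron 5 (24.4 kb) had 11 in both, 0 for +24 alone and 8 for +24cc alone of 54. Intron 6 (30.4 kb) had 15, 11 and 12 of 71. No fragment of intron 7 or of exon 8, with 11 fragments each, was listed for either bait.

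**Figure D2:**
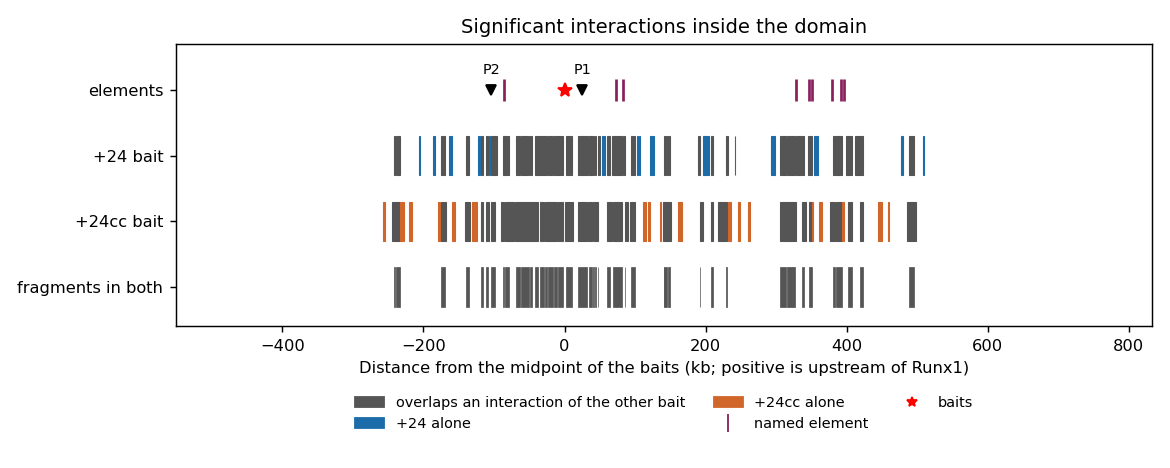
Map of the domain with distance from the midpoint of the baits in kb (x axis). Rows show the interactions of +24 and +24cc, in grey where they overlap one of the other bait and in colour where they do not, the fragments listed for both (bottom row), the 9 named elements (purple lines), the P1 and P2 start sites (triangles) and the baits (star). Grey blocks are dense from P2 to 100 kb upstream and again around the elements at 300 to 400 kb, with coloured blocks of each bait between them.

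Inside the domain, common fragments were more often of category 1. Of the 466 common fragments, 84.3% were category 1 in the +24 list, against 48.6% of the 216 listed for +24 alone. In the +24cc list the shares were 71.2% of the 466 and 47% of the 336 listed for +24cc alone. Of the 466, 296 were category 1 in both lists and 37 in neither. As interactions, 28 of 39 shared +24 interactions held a category 1 fragment against 3 of 15 that were not shared, and for +24cc 24 of 39 against 4 of 18. The interactions of 1 bait alone were shorter, with medians of 3196 bp against 5697 bp for +24 and 3476 bp against 5749 bp for +24cc, and a longer interaction is likelier both to overlap another and to hold a category 1 fragment, so these counts by interaction are a description.

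Outside the domain, all 81 common fragments and 148 of the 150 fragments of +24 alone were category 1 in the +24 list. In the +24cc list, 82.7% of the 81 and 76.5% of the 323 fragments of +24cc alone were. Inside, calls from both regions may enter the list, and outside only those made on all of chromosome 16. How these calls were joined is not stated, so categories were not compared across the edge.

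Fragments of 1 bait alone were more often over 10 fragments from the other bait's list than within 3 fragments of it. Of the 366 listed for +24 alone, 45 (12.3%) were next to a +24cc fragment and 107 (29.2%) lay within 3 fragments of one, while 157 (42.9%) were more than 10 fragments away. For the 659 of +24cc alone, 60 (9.1%) were next to a +24 fragment, 166 (25.2%) lay within 3 and 333 (50.5%) were more than 10 away. The median distance to the other bait's nearest fragment was 1.42 kb inside and 9.37 kb outside for +24 alone, and 1.7 and 19.9 kb for +24cc alone. Fragments of 1 bait alone thus lay closer to the other bait's contacts inside the domain, where all contacts are denser, than outside. Of the 15 +24 interactions inside that overlapped none of +24cc, 6 lay within 2 kb of one, as did 8 of the 18 of +24cc, against 4 of 25 and 3 of 46 outside.

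Base composition and restriction sites were compared between these classes of fragments. Inside the domain the GC content was 46.5% for common fragments, 45.7% for +24 alone, 45.9% for +24cc alone and 46.4% for all *Dpn*II fragments. An *Mse*I site, the second cut of both baits, was missing from 38.4% of common fragments (34.1 to 42.9%), 32.9% of +24 alone (27 to 39.4%), 37.8% of +24cc alone (32.8 to 43.1%) and 39.1% of all. Median fragment lengths were 325, 319 and 310 bp for these classes, against 288 bp for all fragments of the domain. Outside the domain, the median was 396 bp for common fragments, 311 bp for +24 alone and 299 bp for +24cc alone.

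The promoter baits, which were not used to define these classes, listed more of the common fragments. Inside the domain, 315 of the 466 common fragments (67.6%) were also listed for at least 1 of P1cc, P1, P2cc and P2, compared with 114 of 216 for +24 alone (52.8%), 173 of 336 for +24cc alone (51.5%) and 380 of 2203 fragments on neither +24 list (17.2%). At 50 kb or more from the baits the shares were 66.2%, 43.9%, 51% and 16.5%. P1 listed 140 of the 466 and P2 114, so the overlap was not with the active promoter alone. All baits share the same cell passages and the same calling method, and these shares are given as a description.

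Named elements were those of the study's table of enhancers within the domain, each named by its distance in kb from the P1 start site. The authors selected them for an interaction, in most cases as clusters of transcription factor binding with a significant interaction at or within 2 kb, and −368 as an interacting conserved element beside such a cluster. A contact within 2 kb was thus part of their selection and is no finding. Of the 9 elements apart from +24, 7 were placed by the amplicon of the study's cloning primers, and −368 and +110 by name. For comparison, 35.8% of the domain's fragments lay within 2 kb of a +24 interaction and 40.1% within 2 kb of a +24cc interaction. What selection did not fix is which bait touched the element itself. Of the 9, interactions of +24 overlapped 6 and those of +24cc overlapped 8, with 5 overlapped by both. Of the 1385 tiles of 1 kb in the domain, 25.7% were overlapped by +24, 29.6% by +24cc and 18.6% by both. The tiles are not matched for selection or distance. The −48, −58 and +110 elements lie 73.2 to 85 kb from the baits. From 50 to 100 kb on either side, each bait listed 61.2 to 79.8% of fragments. The counts of elements are thus a description and no measure of enrichment.

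The −48 element (92873823 to 92874806) was covered whole by both baits, and its 7 fragments were category 1 in each list. The +110 element was covered whole by +24 and to 24.1% by +24cc, and the −368 element to 58.5% by both, on the same 2 category 1 fragments. These placed-by-name windows are 1000 bp long. The 7 elements placed by primers lay between 0.004 and 0.779 kb from the position that their names give, and a shift of that size could end the +24cc overlap at +110 and the +24 overlap at −368, and with them 1 of the 8, 1 of the 6 and 2 of the 5. At −321 the +24 interaction covered the whole element with 2 category 1 fragments, whereas +24cc covered 79.5% with 1 fragment that was not category 1. Both overlapped −303 (93129158 to 93130143) but at different fragments: +24 covered the upstream 21.2% and +24cc the downstream 57.6%, with 0 fragments in common and 0 of category 1.

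At 4 elements the baits parted. The −371 (93197060 to 93198031), −354 (93179942 to 93180862) and −327 (93152585 to 93153572) elements were each covered whole by +24cc, with 0 category 1 fragments, and not overlapped by +24. The nearest +24 interactions were 1.96, 0.559 and 0.673 kb away and were category 1 at that distance. The −58 element (92883674 to 92884586) was the reverse: +24 covered 79.8% of it, also with 0 category 1 fragments, and the nearest +24cc interaction ended 0.591 kb short. Category 1 fragments of +24 had 25.1% of the domain's fragments within 2 kb, and those of +24cc 24%. With category 1 fragments alone, +24 kept all 9 elements within 2 kb and +24cc 5, the nearest category 1 fragment of +24cc being 24.7 kb from −327, 19.7 kb from −321, 7.15 kb from −354 and 2.9 kb from −371. At these 4 elements category 1 contacts within 2 kb were thus held by +24 and lower-class contacts by +24cc. At −303 both baits had a category 1 fragment 1.3 kb away.

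**Figure D3:**
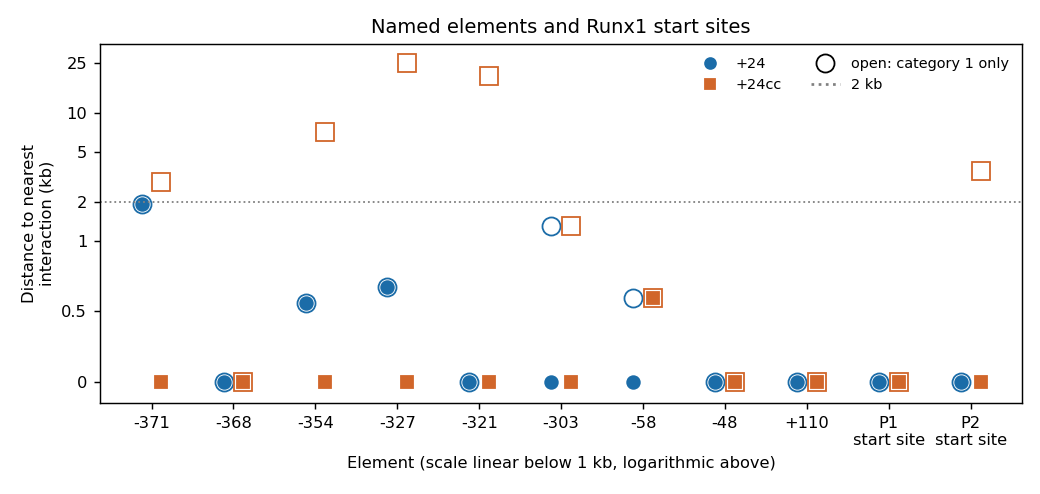
Distance (kb, y axis, linear below 1 kb and logarithmic above) from each named element and *Runx1* start site (x axis) to the nearest interaction of +24 (blue circles) and +24cc (orange squares), for all listed fragments (filled) and category 1 fragments alone (open). All filled symbols lie below the dotted line at 2 kb, and the open orange squares at −371, −354, −327, −321 and P2 lie above it.

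The middle 300 bases of 3 of these elements are shown, −371 and −327 as elements covered by +24cc and not by +24, and −58 as the reverse. Capitals mark the GATA core AGATAA, the RUNX core TGTGGT and the E-box CAGCTG on either strand, since GATA, RUNX and E-box factors such as Scl bind together at many blood enhancers.
−371, chr16:93197396-93197695: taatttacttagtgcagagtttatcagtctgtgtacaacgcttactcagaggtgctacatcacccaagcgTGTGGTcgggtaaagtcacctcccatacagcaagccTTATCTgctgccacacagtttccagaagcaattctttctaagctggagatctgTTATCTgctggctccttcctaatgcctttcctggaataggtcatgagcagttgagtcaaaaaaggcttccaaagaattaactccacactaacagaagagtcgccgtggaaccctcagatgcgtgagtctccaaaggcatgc
−327, chr16:93152929-93153228: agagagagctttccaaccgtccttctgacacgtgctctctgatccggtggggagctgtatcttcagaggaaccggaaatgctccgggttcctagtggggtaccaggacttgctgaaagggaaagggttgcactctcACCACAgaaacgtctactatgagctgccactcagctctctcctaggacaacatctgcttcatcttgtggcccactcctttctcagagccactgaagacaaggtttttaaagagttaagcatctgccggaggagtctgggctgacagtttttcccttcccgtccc
−58, chr16:92883980-92884279: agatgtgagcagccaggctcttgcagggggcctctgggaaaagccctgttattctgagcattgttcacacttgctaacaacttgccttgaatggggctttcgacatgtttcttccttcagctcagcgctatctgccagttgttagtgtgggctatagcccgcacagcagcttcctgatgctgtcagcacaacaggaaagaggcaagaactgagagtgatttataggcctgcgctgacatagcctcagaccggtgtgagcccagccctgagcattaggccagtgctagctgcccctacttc
The −371 window held 2 GATA cores and 1 RUNX core, −327 held 0 and 1, and −58 held 0 and 0. The −354 window, which is of the same kind as −371 and −327 and is not printed, held 1 and 0. The CTCF core AGGNGGC, not marked, had 1 match in the −58 window and 0 in the other 9, against 14.8% of tiles with at least 1. Of the 10 element windows, +24 included, 6 held the GATA core, 4 the RUNX core and 2 the E-box, where 15.1%, 22.1% and 14.6% of all 300 bp tiles of the domain did. Most of the elements had been selected for factor binding, and a match of letters is no evidence of binding by itself.

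The baits differed in number of interactions on the downstream flank of the domain more than on the upstream flank, which was not tested. On the upstream flank +24 had 27 interactions, of which 9 were shared, and +24cc had 25, of which 9 were shared. On the downstream flank +24 had 12 and +24cc 35, with 5 shared from each. These downstream interactions covered 31.3 kb for +24 and 99.2 kb for +24cc. Of the 30 downstream interactions held by +24cc alone, 22 had a category 1 fragment, as did all 7 of +24 alone. The 30 include 4 that lie 4 bp apart in *Son*. With merging over 4 bp, +24cc had 57 interactions outside the domain in place of 60.

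Genes (body or 2 kb upstream) were overlapped by 24 of 39 +24 interactions outside the domain (61.5%, 45.9 to 75.1%) and 38 of 60 of +24cc (63.3%, 50.7 to 74.4%), an odds ratio of 0.93 (0.37 to 2.33) with an adjusted p of 1 by Fisher's exact test. They met 16 genes for +24 (2% of 802 chromosome 16 genes with a curated RefSeq transcript that reach outside the domain) and 19 for +24cc (2.37%). Of these 25 genes, 10 were met by both baits, 6 by +24 alone and 9 by +24cc alone. Only 4 of the 10 had even 1 *Dpn*II fragment in common, namely *Dop1b*, the non-coding *2310043M15Rik* nested in it, *Morc3* and *Chaf1b*, all on the upstream flank. A gene met by both baits was thus often met at different places.

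*Dop1b*, which encodes a large protein of the endosomal system, held 44 of the 81 fragments outside the domain that both baits listed. It lies from 93711907 to 93810588, 886 kb upstream of *Runx1*, and had 7 interactions of +24 and 8 of +24cc, with 5 of the 7 overlapping. These held 82 fragments for +24 and 105 for +24cc in all, each of category 1. The closest interaction to its start site was 2.55 kb away for +24cc and 20.1 kb for +24.

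*Chaf1b* encodes a subunit of chromatin assembly factor 1, which loads histones at replicated DNA. Both baits overlapped its start site, with 7 category 1 fragments for +24 and 22 for +24cc, 7 of them in common. *Morc3*, an ATPase of nuclear bodies, was overlapped on the same 8 fragments by both (93844845 to 93850458), as category 1 for +24 and in the lower class for +24cc, which had 2 further fragments in the gene. At both genes every +24 fragment was thus also a +24cc fragment.

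At *Itsn1* the baits met the gene without meeting each other. This gene of an endocytic scaffold protein lies from 91729371 to 91920579, 681 kb downstream of *Runx1*, and had 7 interactions of +24cc (42 fragments, 25 of category 1) and 1 of +24 (3 fragments, 91747331 to 91749293). The +24 interaction was 13 kb from the nearest of +24cc, and no fragment was common. *Slc5a3*, which encodes a myo-inositol transporter, and *Mrps6*, for a mitochondrial ribosomal protein, overlap one another. In *Slc5a3*, +24 had 2 interactions (13 fragments, all category 1) and +24cc 1 (3 fragments), 1.56 kb apart. On this flank all 5 shared interactions of +24cc were intergenic, 4 of them from 91947192 to 91989156 between *Itsn1* and *Slc5a3* and the other at 90166302 to 90168265.

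On the upstream flank, too, several genes were met at different places. *Cldn14*, a claudin of tight junctions, had 2 interactions of +24 and 4 of +24cc, 5.12 kb apart at the closest. *Hlcs*, the ligase that attaches biotin to carboxylases, had 3 of +24 and 1 of +24cc, 15.5 kb apart. *Kcnj15*, an inwardly rectifying potassium channel, had 1 of each, 27.8 kb apart. None of these had a fragment in common.

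Met by +24 alone were *Cbr3* (a carbonyl reductase, 11 fragments), *Kcnj6* (a potassium channel, 6), *Brwd1* (a bromodomain protein, 4), *Hmgn1* (a nucleosome-binding protein, 2), *Vps26c* (a subunit of an endosomal sorting complex, 2) and the non-coding *1600002D24Rik* (2). At *Hmgn1* the contact was 1.51 kb from the start site, on the upstream side. At *Kcnj6* it was 205 kb from the start, in an intron. All these fragments but the 2 of *Vps26c* were category 1.

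Met by +24cc alone were *Son* (a splicing factor, 12 fragments in the gene), *Cryzl1* (a quinone oxidoreductase, 9), *Gm10785* (8), *Tmem50b* (a membrane protein, 6), *Tiam1* (an activator of the small GTPase Rac, 5), *Erg* (an ETS transcription factor of blood stem cells, 3), *B3galt5* (a galactosyltransferase, 3), *Gm36712* (2) and *Ttc3* (a ubiquitin ligase, 2). Neither *Erg* nor *Tiam1* was met by +24, whose nearest interactions were 95.5 kb and 135 kb away. At *Erg* the 3 fragments lay in an intron 219 kb from the start site and 0 were category 1, and at *Tiam1* 2 of the 5 were. The *Tmem50b* contact overlapped its start site with 0 category 1 fragments.

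**Figure D4:**
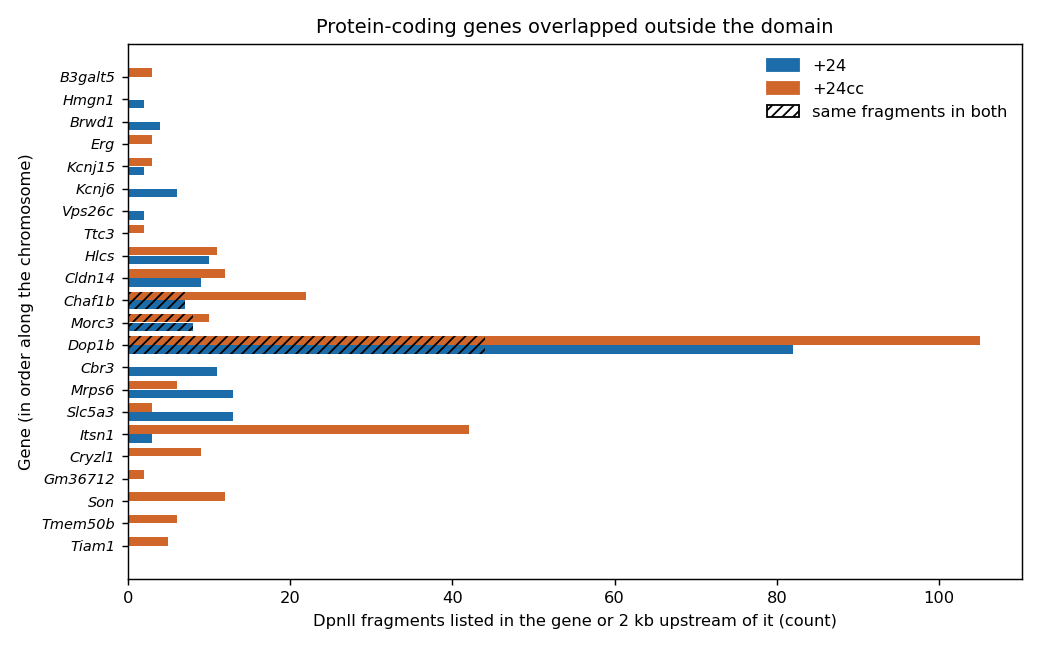
Number of *Dpn*II fragments (x axis) listed for +24 (blue) and +24cc (orange) in each protein-coding gene or the 2 kb upstream of it that was overlapped outside the domain (y axis, in chromosome order), with the fragments listed for both hatched. Hatching appears at *Dop1b*, *Morc3* and *Chaf1b* and at no other gene.

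The gene lists were chosen with earlier results of these data known, so their counts are a description. *Runx1*, which holds the baits, had 19 interactions of +24 and 17 of +24cc. Of the other 9 blood genes and transcription factors, +24 met 2 (*Hmgn1* and *Chaf1b*) and +24cc met 4 (*Erg*, *Chaf1b*, *Son* and *Tiam1*), beside the 2% and 2.37% of all genes given above. Those shares cover the whole chromosome, whereas all genes met outside the domain lay 489.2 to 3410 kb from *Runx1*. The shares are thus not matched for distance and give no measure of enrichment. *Ets2*, *Gabpa*, *Dyrk1a* and *Bach1* were met by neither. The +24cc interaction nearest to *Bach1*, a repressor of haem-responsive genes, was 4.73 kb from it.

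None of the 4 interferon and interleukin receptor genes (*Ifnar1*, *Ifnar2*, *Ifngr2* and *Il10rb*) was met, although *Ifngr2* had an interaction of +24 at 1.03 kb and one of +24cc at 0.741 kb from its gene window. Of 4 potassium channel genes, +24 met *Kcnj6* and *Kcnj15* and +24cc met *Kcnj15*. *Kcne1* and *Kcne2* were met by neither. Of the 4 genes at the domain edges, +24 met *Cbr3* and +24cc none. *Clic6*, a chloride channel family member, was 18.3 kb from the nearest +24 interaction and 1.91 kb from the nearest of +24cc.

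**Figure D5:**
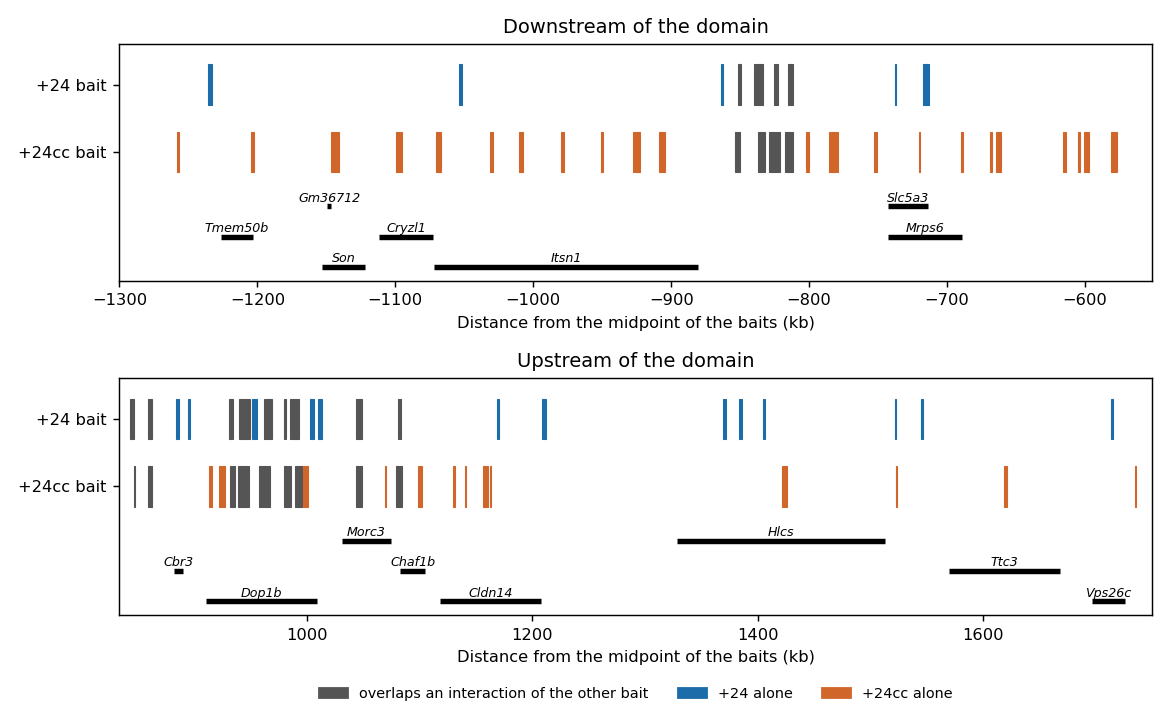
Interactions of +24 and +24cc beyond the downstream edge (top) and the upstream edge (bottom) of the domain, with distance from the midpoint of the baits in kb (x axis) and protein-coding genes that either bait overlapped (black bars). Grey blocks, which overlap an interaction of the other bait, stand between *Itsn1* and *Slc5a3* downstream and around *Dop1b* upstream, and most other downstream blocks are orange (+24cc alone).

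The promoter baits had 7 interactions outside the domain, of which 1 was overlapped by +24 and 2 by +24cc, all in *Dop1b*. Of the others, a P1cc interaction (93720532 to 93723438) abutted one of +24cc, and another (93808771 to 93810895) abutted one of +24, each with 0 bp between them. Both lie at *Dop1b*. P1 had an interaction from 93791355 to 93791885 that both +24 baits overlapped.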

How the data were processed

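Per the labels and the methods of the study, the authors kept reads of 30 bp or more, mapped them without mismatch to mm10 (Bowtie), assigned them to *Dpn*II fragments and called interactions with fourSig (window of 3 fragments), before intersecting both replicates. The deposited lists give positions and category, and their score column, as deposited, is a constant of 1000 that was not used. Members, lists and comparisons were chosen with earlier results of these data known.

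All listed fragments coincided with *Dpn*II fragments of chromosome 16 of GRCm38.p6 (232250 counting both ends). Bait and element primers were placed with edlib 1.3.9.post1, allowing 1 difference, and −368, +24 and +110 by name with 500 bp to each side of that position. Gene models were curated RefSeq transcripts. A fragment or interaction was placed by its midpoint. The 6 two-sided Fisher's exact tests were adjusted together (Benjamini-Hochberg), with Wilson intervals (95%), in Python 3.11.15, numpy 2.4.6 and scipy 1.17.1. Merging, overlap and nearest-distance functions were tested on simulated fragments. Genes named are all those overlapped outside the domain and 4 lists fixed for this comparison. Reads, profiles and the zebrafish assays were not analysed here.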

Additional observations from a re-analysis of the deposited data

How the results depend on the processing

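The shared shares of both baits stayed higher inside than outside the domain, past the threshold, under all alternatives run: fragments not merged or merged up to 1 kb or 4 bp apart, category 1 alone, 20 kb around the baits left out, a 2 kb margin, and 50% of the shorter interaction covered. Taking the domain from *Clic6* to *Setd4* moved no interaction across its edge, so it tests nothing. No alternative removed the difference in list density between inside and outside, so the part of density stayed untested in all of them. The shares of +24 and +24cc also count the same overlaps from either side. Without merging, the odds ratios of +24 over +24cc for the outside share and the category 1 share were 0.673 and 1.95 and passed the threshold. The upstream share reversed without merging and with merging up to 1 kb apart (odds ratio 1.13 in each). The gene share reversed without merging (1.42) and with merging up to 1 kb or 4 bp apart (1.01 in each), never past the threshold. Merging over 4 bp was chosen after the data were seen, because 4 interactions of +24cc in *Son* are 4 bp apart. Of fragments listed for either bait, 31.1% were in both with category 1 alone and 41.5% when a neighbouring fragment also counted. By direct overlap 5 elements were contacted by both baits, and with category 1 alone 5 by +24cc and 5 by both. For the category 1 share, category 1 alone gives no value. No paired analysis was possible because the deposited lists intersect both replicates and hold no column per replicate, so no replicate could be left out either. Without read counts, a fragment listed for 1 bait alone cannot be told from one that fell just short of the threshold in 1 replicate of the other.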

Other observations

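Some listed fragments were shorter than the shortest read that was mapped. Of the 913 fragments of +24, 52 (5.7%) were under 30 bp, and of the 1206 of +24cc, 78 (6.47%) were, with a shortest of 5 bp in each list. The share was 6.67% among all *Dpn*II fragments of the domain, 4.75% among fragments in both lists, 7.1% among those of +24 alone and 7.89% among those of +24cc alone. Calls were made in windows of 3 fragments.

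A +24cc interaction outside the domain (90188581 to 90190247, 1.67 kb, 2612 kb downstream) held 26 fragments with a median of 22 bp, 0 of them category 1, and had no +24 interaction within 19.6 kb. The farthest interaction of +24 (76591033 to 76592160, 2 category 1 fragments) lay 16210 kb downstream, and the farthest of +24cc (87738073 to 87740147, 3 category 1 fragments) 5062 kb downstream.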
